A study of Homo sapiens with 36 samples.

Results

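The enzymes that carry glucose to lactate were followed as transcripts in HMC3, a human cell line established from microglia, under exposure to PFOS (perfluorooctane sulfonate), a surfactant that persists in the environment. The members were taken by symbol from the table of counts per gene: HK2, GPI, PFKP, ALDOA, TPI1, GAPDH, PGK1, ENO1, PKM and LDHA. All 10 were found among 25344 genes in the table, and all 10 passed the filter on low counts that left 9847 genes for testing. Cells were grown in high-glucose medium with serum and received vehicle (0 µM), 25 µM or 50 µM PFOS for 24 h. In the recovery groups exposure was followed by another 24 h in PFOS-free medium, so that vehicle cells of the recovery groups were 24 h longer in culture than vehicle cells at 24 h. Each of these 6 groups had 3 RNA-seq libraries, 18 in all, from 1 cell line. The labels call them biological replicates without saying whether they came from separate cultures, so a p-value here reflects only how far these libraries spread, which may be technical.

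Total counts ran from 582233 to 4346627 per library, a range in which the members were well covered except for HK2. The label of a microglial cell was checked against 11 microglia and myeloid markers. AIF1, CX3CR1, TYROBP and C1QA had no count in any library, and all 11 together reached 0 to 5.81 CPM (counts relative to the TMM-scaled library size), so the defining markers of microglia were absent or nearly so. Mesenchymal and pericyte markers, of which 7 of 8 were tested and COL3A1 was at 0, summed to 12900 to 21100 CPM in 5 groups and to 3770 to 12500 CPM in the 50 µM recovery group. At 50 µM 4 of the 7 were lower than in vehicle both at 24 h and after recovery, beside 9.59% and 10.7% of all tested genes. Epithelial markers, 2 of 4 tested, summed to 1040 to 1310 CPM in the 50 µM recovery libraries and to 540 to 957 CPM elsewhere, while astrocyte markers (1 of 5 tested, SLC1A2 at 0) and neuron markers (1 of 4 tested) stayed at 7.92 to 20.7 and 4.17 to 19.1 CPM. The part of these markers in the results below was not tested. The 3 libraries of 50 µM PFOS after recovery stood apart from the rest: ribosomal protein genes held 2.96%, 7.66% and 5.08% of their counts in libraries 1, 2 and 3, against 1.22% to 2.44% in the other 15 libraries. Library 2 had the highest of these shares, and for the members' results after recovery from 50 µM the value without it is given where it differs in call, direction or size. In a bulk sample, fewer cells of a type and less RNA per cell cannot be told apart.

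Glycolysis splits glucose into a pair of pyruvate molecules and yields ATP and NADH without oxygen. Hexokinase traps glucose as its phosphate, isomerase and phosphofructokinase prepare the sugar for cleavage by aldolase, and the later, triose steps from GAPDH to pyruvate kinase recover energy. Lactate dehydrogenase then reduces pyruvate to lactate and returns NAD+ to GAPDH. Microglia are known to lean on this route when activated, and the transcription factors HIF1A and MYC are textbook activators of most of its genes.

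The 5 members that passed a test in a comparison of PFOS with vehicle lie on GRCh38.p14, per RefSeq, at chr11:18394563-18408425 (LDHA), chr12:6534517-6538371 (GAPDH), chr12:6867420-6870948 (TPI1), chr16:30064279-30070420 (ALDOA) and chr19:34359718-34402413 (GPI).

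The promoter of LDHA is shown because LDHA had the largest change of the members at 50 µM and 24 h, and that of PGK1 because PGK1 was the member whose level varied most like that of LDHA across the 18 libraries (Pearson r of 0.79 for log2 CPM, and 0.84 over the 15 libraries outside the 50 µM recovery group). These correlations are descriptions over libraries that share groups and scaling. Each sequence is the stretch of 250 bases before the first transcript start that RefSeq lists for the gene on GRCh38.p14, plus strand, at chr11:18394313-18394562 for LDHA and chrX:78103998-78104247 for PGK1. Capitals mark ACGTG and GCGTG, the core letters of the hypoxia response element, on either strand, where CACGT is ACGTG read from the other strand.
LDHA: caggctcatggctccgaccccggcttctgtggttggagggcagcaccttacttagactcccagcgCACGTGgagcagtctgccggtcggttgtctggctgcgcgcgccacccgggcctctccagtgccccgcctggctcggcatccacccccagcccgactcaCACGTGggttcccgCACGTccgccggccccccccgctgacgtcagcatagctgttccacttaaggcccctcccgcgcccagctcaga
PGK1: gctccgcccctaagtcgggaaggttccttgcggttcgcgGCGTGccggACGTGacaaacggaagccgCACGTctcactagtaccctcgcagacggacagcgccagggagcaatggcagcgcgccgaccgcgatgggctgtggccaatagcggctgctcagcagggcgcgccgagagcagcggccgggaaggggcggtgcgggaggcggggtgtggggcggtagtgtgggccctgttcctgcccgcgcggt
LDHA held ACGTG at 3 places, and at 2 of these, ending 180 and 82 bases before the start, the letters form the palindrome CACGTG, the E-box that MYC and MLX family factors are known to bind. PGK1 held ACGTG on each strand and GCGTG on 1. Among the 10 members ACGTG occurred in 6 and in 18.7% of 27305 genes with a promoter entry, GCGTG in 3 and in 31.9%, CACGTG, which contains ACGTG, in 2 (LDHA and GAPDH) and in 6.5%, and the GC box GGGCGG in 7 and in 42.3%. The core of the ATF4 response element, TGATGNAA, occurred in 0 members and in 3.2% of genes. Both strands were searched in each case. A match describes letters in this window and is not evidence of binding.

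After 24 h at 50 µM PFOS the transcript of the last enzyme, LDHA, was lower and that of GAPDH was higher, and the other 8 members did not pass the test. Among all 9847 tested genes 9.18% were higher and 9.59% were lower in this comparison, so 1 higher and 1 lower member of 10 is a share close to the background. The members' median log2 fold change was -0.14, against 0.01 for all tested genes. At 25 µM PFOS and 24 h 0 of 10 members passed, with 1 at an unadjusted p under 0.05 in edgeR, and 1.24% of all genes were called in either direction. DESeq2 also called 0 members there. A called gene is one with a Benjamini-Hochberg adjusted p under 0.05 in edgeR's quasi-likelihood test over all tested genes, and ± after a log2 fold change is its standard error (SE). Overlap of libraries between groups is a description, worked out for the members only, so no share over all genes stands beside it.

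**Figure D1:**
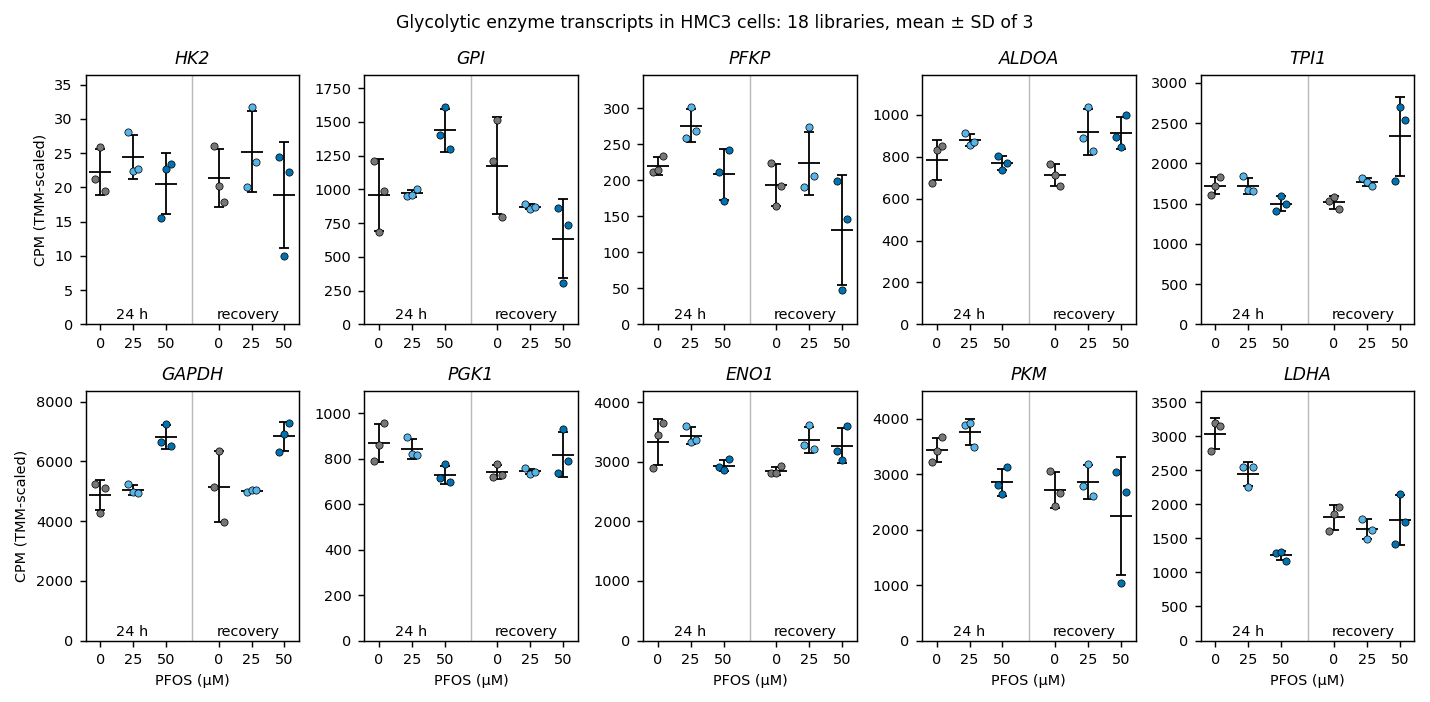
Level of each of the 10 glycolytic enzymes in CPM (y axis, TMM-scaled, starting at 0) in the 18 libraries by PFOS dose (x axis, µM), with 24 h groups left and recovery groups right of the grey line. Points are libraries and bars are mean ± SD of 3; LDHA at 50 µM and 24 h lies between 1167 and 1300 CPM, under every other library.

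After recovery from 50 µM PFOS the pattern differed from that at 24 h. TPI1, GAPDH and ALDOA were higher and GPI was lower than in vehicle after recovery, while LDHA was near its vehicle level. Across all genes 17.7% were higher and 10.7% were lower in this comparison. The members' median was 0.06, against -0.05 for all tested genes. Without library 2 of the 50 µM recovery group 2 members were called (TPI1 and ALDOA, both higher), and in a fit of these 6 libraries alone 0 were called. After recovery from 25 µM PFOS 0 of 10 members passed, as did 0% of all genes. Of all genes 693 had an unadjusted p under 0.05 there, and DESeq2 called 4 genes and 0 members.

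**Figure D2:**
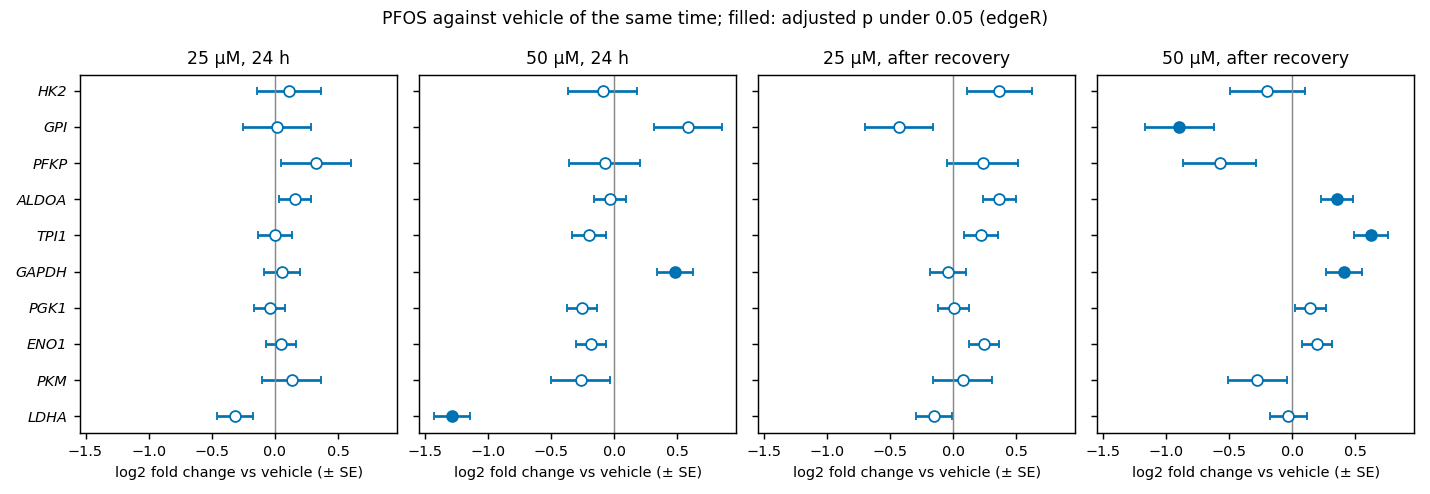
Log2 fold change (x axis, ± SE) of each member (y axis, in pathway order) for PFOS against vehicle of the same time in 4 panels by dose and time. Filled points passed edgeR's adjusted p under 0.05: LDHA and GAPDH at 50 µM and 24 h, and GPI, ALDOA, TPI1 and GAPDH at 50 µM after recovery.

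In the preparatory steps HK2, the hexokinase that is inducible in many cell types and binds mitochondria, was the least covered member. Its level was 21.2, 25.9 and 19.4 CPM in the vehicle libraries at 24 h, 28.1, 22.4 and 22.6 CPM at 25 µM, and 15.5, 22.7 and 23.5 CPM at 50 µM. After recovery it was 26.0, 20.2 and 17.9 CPM in vehicle, 20.1, 31.7 and 23.8 CPM after 25 µM, and 24.4, 10.0 and 22.2 CPM after 50 µM. The libraries of all groups overlapped, and the lowest value was that of library 2 after 50 µM and recovery. The log2 fold change at 50 µM and 24 h was -0.09 ± 0.27 (adjusted p = 0.861), with a 95% interval of -0.66 to 0.48. After recovery it was 0.37 ± 0.26 at 25 µM (adjusted p = 0.833) and -0.20 ± 0.30 at 50 µM (adjusted p = 0.660), and the latter was 0.16 without library 2.

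GPI, which turns glucose 6-phosphate into fructose 6-phosphate, showed opposite differences at the 2 times. Its level was 1214, 681 and 989 CPM in vehicle at 24 h, 948, 959 and 1003 CPM at 25 µM, and 1401, 1610 and 1301 CPM at 50 µM. All 50 µM libraries lay above all vehicle and 25 µM libraries of that time, while vehicle library 2 lay below the others. The log2 fold change at 50 µM and 24 h was 0.58 ± 0.27, which did not pass (adjusted p = 0.141). Without library 2 of the 50 µM recovery group, which adds to the shared estimate of the spread, the same change of 0.58 was called (adjusted p = 0.0145). Without vehicle library 2 it was 0.38 (adjusted p = 0.461). After recovery GPI was at 1213, 1512 and 796 CPM in vehicle, 890, 855 and 873 CPM after 25 µM, and 864, 305 and 734 CPM after 50 µM. Here library 1 after 50 µM overlapped with vehicle library 3, and library 2 was the lowest of all 18. The change of -0.89 ± 0.27 was called (adjusted p = 0.0186). Without library 2 it was -0.56 and did not pass (adjusted p = 0.0600), and it did not pass without vehicle recovery library 1 or 2 or in a fit of these 6 libraries alone, with adjusted p from 4.46e-07 to 0.222 over 28 alternatives. At 25 µM after recovery the change was -0.43 ± 0.27 (adjusted p = 0.800).

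PFKP, the platelet form of phosphofructokinase, which commits the sugar to glycolysis, was at 212, 214 and 234 CPM in vehicle at 24 h, 259, 302 and 268 CPM at 25 µM, and 211, 172 and 242 CPM at 50 µM. The 25 µM libraries all lay above the vehicle libraries, and the log2 fold change of 0.33 ± 0.28 did not pass (adjusted p = 0.842). Those at 50 µM overlapped with vehicle (-0.07 ± 0.28, adjusted p = 0.889). After recovery the level was 224, 164 and 192 CPM in vehicle, 191, 274 and 205 CPM after 25 µM, and 199, 48.3 and 146 CPM after 50 µM. Library 2 after 50 µM was the lowest by far, and libraries 1 and 3 were nearer to vehicle. The change of -0.58 ± 0.29 after 50 µM and recovery did not pass (adjusted p = 0.147). It was -0.15 without library 2 (adjusted p = 0.637), and it was called without library 1 (-1.05, adjusted p = 0.00422) and with no filter (-0.61, adjusted p = 0.0116).

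ALDOA, the aldolase that cleaves fructose 1,6-bisphosphate into the triose phosphates, was at 675, 830 and 851 CPM in vehicle at 24 h, 912, 855 and 871 CPM at 25 µM, and 802, 736 and 771 CPM at 50 µM. At 50 µM the values lay inside the vehicle range, with a log2 fold change of -0.03 ± 0.13 (adjusted p = 0.900; 95% interval -0.30 to 0.24). After recovery ALDOA was at 765, 715 and 661 CPM in vehicle, 890, 1037 and 825 CPM after 25 µM, and 896, 846 and 998 CPM after 50 µM. Neither PFOS group overlapped with vehicle. The change was of like size at both doses, 0.37 ± 0.13 at 25 µM, where it did not pass (adjusted p = 0.565), and 0.36 ± 0.13 at 50 µM, where it did (adjusted p = 0.0439). The call at 50 µM was kept in only 11 of 28 alternatives, with adjusted p from 0.0207 to 0.883. Removing the trend with gene span described below turned the value to -0.03 and also ended the call. Without library 2 it was 0.41 (adjusted p = 0.0285).

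TPI1, which interconverts the triose phosphates, was at 1612, 1724 and 1825 CPM in vehicle at 24 h, 1839, 1666 and 1653 CPM at 25 µM, and 1405, 1600 and 1499 CPM at 50 µM. The 50 µM libraries all lay slightly below vehicle, and the log2 fold change of -0.20 ± 0.14 did not pass (adjusted p = 0.349), although it did after the gene-span trend was removed (-0.40, adjusted p = 0.0157). After recovery TPI1 was at 1529, 1588 and 1434 CPM in vehicle, 1816, 1764 and 1719 CPM after 25 µM, and 1781, 2699 and 2534 CPM after 50 µM. All libraries from PFOS-treated cells exceeded those of vehicle, and libraries 2 and 3 after 50 µM were the highest of all 18. The change at 50 µM was 0.62 ± 0.14 (adjusted p = 0.00187), and 0.51 without library 2 (adjusted p = 0.00688). It was lost in a fit of these 6 libraries alone, and it was -0.01 once the gene-span trend was removed.

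GAPDH, the dehydrogenase that makes NADH and is a common reference gene, was at 5235, 4280 and 5094 CPM in vehicle at 24 h, 5235, 4973 and 4937 CPM at 25 µM, and 6654, 7264 and 6501 CPM at 50 µM. The 25 µM values lay within the vehicle range, and all 50 µM values lay above it. Its log2 fold change of 0.48 ± 0.14 at 50 µM and 24 h was called (adjusted p = 0.0207). The call was lost without vehicle library 2 (0.40, adjusted p = 0.121), without 50 µM library 2 (0.44, adjusted p = 0.0779) and with the gene-span trend removed (0.28, adjusted p = 0.123). After recovery GAPDH was at 5151, 6345 and 3960 CPM in vehicle, 4959, 5045 and 5026 CPM after 25 µM, and 6301, 6923 and 7273 CPM after 50 µM. Vehicle libraries spread widely here, and library 2 of vehicle reached the lowest value after 50 µM. The change of 0.41 ± 0.14 passed (adjusted p = 0.0373), but not without library 2 of the 50 µM group (0.40, adjusted p = 0.0590). The call was also lost without vehicle recovery library 1 or 3, without 50 µM recovery library 3, with upper-quartile scaling, without the filter, with thinned counts and in a fit of these 6 libraries alone, and with the gene-span trend removed the value turned to -0.16. RefSeq lists 65 pseudogenes named after GAPDH, 0 of them in the count table, so how reads were divided between the gene and its copies is uncertain. The same holds for LDHA with 6, PKM with 5, TPI1 and ENO1 with 4 each, ALDOA and PGK1 with 2 each and HK2 with 1, of which only 2 copies of TPI1 are in the table.

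PGK1, which makes the first ATP of the pathway, was at 790, 860 and 956 CPM in vehicle at 24 h, 896, 823 and 816 CPM at 25 µM, and 716, 775 and 700 CPM at 50 µM. The 50 µM libraries lay just below those of vehicle (log2 fold change -0.25 ± 0.12, adjusted p = 0.159). After recovery it was at 720, 776 and 729 CPM in vehicle, 758, 733 and 743 CPM after 25 µM, and 737, 929 and 791 CPM after 50 µM, with overlap in both comparisons (0.14 ± 0.12 at 50 µM, adjusted p = 0.402, and 0.04 without library 2).

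ENO1, the enolase that forms phosphoenolpyruvate, was at 2897, 3440 and 3644 CPM in vehicle at 24 h, 3598, 3334 and 3372 CPM at 25 µM, and 2911, 2853 and 3039 CPM at 50 µM. Vehicle library 1 overlapped with the 50 µM libraries, and the change was -0.18 ± 0.12 (adjusted p = 0.315). After recovery it was at 2807, 2805 and 2927 CPM in vehicle, 3274, 3615 and 3213 CPM after 25 µM, and 3180, 3030 and 3600 CPM after 50 µM. Both PFOS groups lay above vehicle without overlap, and the change of 0.20 ± 0.12 at 50 µM did not pass (adjusted p = 0.218).

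PKM, the muscle-type pyruvate kinase whose splice forms a gene count does not separate, was at 3217, 3426 and 3664 CPM in vehicle at 24 h, 3882, 3919 and 3500 CPM at 25 µM, and 2805, 2644 and 3125 CPM at 50 µM. The 50 µM libraries lay below vehicle without overlap, and the change of -0.27 ± 0.24 did not pass (adjusted p = 0.478). After recovery it was at 3054, 2424 and 2668 CPM in vehicle, 2780, 3193 and 2604 CPM after 25 µM, and 3034, 1032 and 2673 CPM after 50 µM. After 25 µM library 2 lay above the vehicle range. After 50 µM only library 2 lay outside that range, below it. The change of -0.27 ± 0.24 (adjusted p = 0.408) turned to 0.07 without that library.

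LDHA, the subunit of lactate dehydrogenase that predominates in muscle and in glycolytic cells, had the lowest adjusted p among the members at 24 h. Its level was 2776, 3190 and 3152 CPM in vehicle at 24 h, 2553, 2248 and 2542 CPM at 25 µM, and 1281, 1300 and 1167 CPM at 50 µM. The 3 groups at 24 h were ordered by dose without overlap. At 50 µM LDHA was at 41.1% of its vehicle level, a log2 fold change of -1.28 ± 0.15 (adjusted p = 1.78e-06), lower in 3 of 3 libraries. It ranked 265 from the lowest log2 fold change among the 9847 tested genes. At 25 µM the change of -0.31 ± 0.14 did not pass (adjusted p = 0.522). The call at 50 µM held in each of 29 alternatives, with log2 fold changes from -1.34 to -1.23 and adjusted p from 1.89e-16 to 4.49e-05.

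After recovery LDHA was at 1603, 1858 and 1960 CPM in vehicle, 1781, 1488 and 1628 CPM after 25 µM, and 1422, 2155 and 1734 CPM after 50 µM. The groups overlapped throughout. The change was -0.15 ± 0.14 at 25 µM (adjusted p = 0.889) and -0.03 ± 0.14 at 50 µM (adjusted p = 0.900), with a 95% interval of -0.33 to 0.27 for the latter, and its sign depended on which library was left out. Without library 2 of the 50 µM group it was -0.20 (adjusted p = 0.333).

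LDHA also differed between the vehicle groups. In vehicle, LDHA fell by 0.75 ± 0.14 on the log2 scale from 24 h to recovery (adjusted p = 0.0131), and the groups did not overlap. It was the 1 member called lower in a comparison where 0.64% of all genes were lower, and 0 members were higher. Leaving out vehicle 24 h library 2 or 3 or vehicle recovery library 1 or 2, or thinning the counts, ended the call, with adjusted p up to 0.0973 and changes from -0.81 to -0.67 over 29 alternatives. GPI did not pass in that comparison (0.29 ± 0.27, adjusted p = 0.704). In the 50 µM groups the mean was 1249 ± 72.2 CPM at 24 h and 1770 ± 368 CPM after recovery (SD, n = 3), and in the vehicle groups it was 3039 ± 229 and 1807 ± 184 CPM.

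Whether the effect of 50 µM PFOS differed between the times was tested as the recovery effect minus the 24 h effect. LDHA was higher in this difference, by 1.25 ± 0.20 on the log2 scale (adjusted p = 0.000481), as was TPI1, by 0.82 ± 0.19 (adjusted p = 0.00715). GPI was lower, by -1.48 ± 0.38 (adjusted p = 0.0119). These 2 higher and 1 lower of 10 members stand beside 11.6% higher and 7.42% lower of all genes. The calls of LDHA and GPI held in each of 28 alternatives. That of TPI1 was lost with the gene-span trend removed (0.39, adjusted p = 0.0936) and held in the other 27. Without library 2 of the 50 µM recovery group the differences were 1.09 for LDHA, 0.71 for TPI1 and -1.14 for GPI.

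The doses were also compared directly. At 24 h LDHA was lower at 50 than at 25 µM, by -0.97 ± 0.14 on the log2 scale (adjusted p = 0.000195), and held its call in 29 alternatives. It was 1 lower and 0 higher of 10 members, beside 3.62% lower and 3.79% higher among all genes. GAPDH did not pass (0.43 ± 0.14, adjusted p = 0.0716, and adjusted p = 0.0249 without library 2 of the 50 µM recovery group), nor did GPI (0.57 ± 0.27, adjusted p = 0.227, and adjusted p = 0.0306 without it). PKM was at -0.40 ± 0.24 (adjusted p = 0.351, and adjusted p = 0.0196 without it). After recovery TPI1 was higher at 50 than at 25 µM, by 0.40 ± 0.14 (adjusted p = 0.0390), and so was GAPDH, by 0.45 ± 0.14 (adjusted p = 0.0294). These are 2 higher and 0 lower of 10, beside 14.7% higher and 7.38% lower among all genes. Both calls were lost without library 2 (TPI1 at 0.29 with adjusted p = 0.183, GAPDH at 0.44 with adjusted p = 0.0527), when any library of these groups other than 50 µM library 1 was left out, and with the gene-span trend removed. PFKP stood at -0.81 ± 0.29 (adjusted p = 0.0542) and at -0.40 without library 2 (adjusted p = 0.193). It was called in 5 of 28 alternatives: with upper-quartile scaling, no filter, the replicate block or DESeq2, and without library 1 of the 50 µM group (-1.29, adjusted p = 0.00092).

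In the 50 µM recovery group members with longer genes tended to have lower log2 fold changes, less closely so in library 1. The span of the gene, from RefSeq on GRCh38.p14, runs from 3.5 kb for TPI1 and 3.9 kb for GAPDH through 6.1 kb for ALDOA, 13.9 kb for LDHA, 17.7 kb for ENO1, 25.0 kb for PGK1, 32.6 kb for PKM and 42.7 kb for GPI to 59.2 kb for HK2 and 69.3 kb for PFKP. Across the 10 members the log2 fold change at 50 µM after recovery had a Spearman rho with span of -0.90, and across 9806 tested genes with a known span it was -0.31. At 50 µM and 24 h the members had a rho of 0.10 and all genes -0.17. After recovery from 25 µM the members had a rho of 0.14 and all genes -0.26, so the trend over all genes was not particular to 50 µM. Genes are not independent replicates, the members share their libraries, and these values are descriptions. Library by library, the members' rho was -0.52, -0.88 and -0.81 in libraries 1, 2 and 3 after 50 µM and recovery. Relative to the mean of vehicle after recovery, log2 CPM in library 2 was 0.83 for TPI1 and 0.45 for GAPDH, and -1.39 for PKM, -1.89 for GPI and -1.97 for PFKP, while library 1 had 0.23 and 0.32 for the first pair and 0.17, -0.39 and 0.05 for the others. The counts of PKM per count of TPI1 were 1.7, 0.382 and 1.05 in these libraries, against 1.51 to 2.35 in the other 15.

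**Figure D3:**
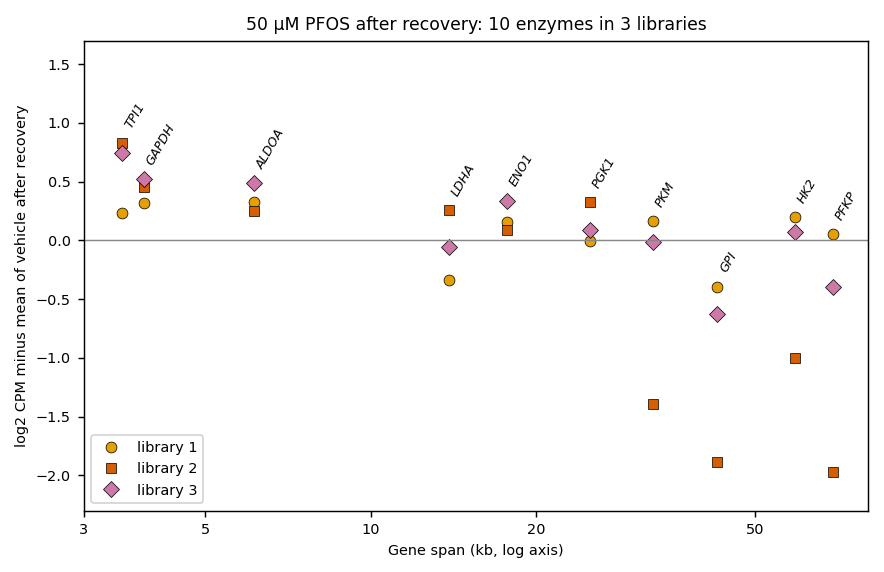
Level of each member in the 3 libraries of 50 µM PFOS after recovery, as log2 CPM minus the mean of vehicle after recovery (y axis), against gene span (x axis, kb, log axis), with 1 marker shape per library. TPI1, GAPDH and ALDOA, the shortest genes, and the longer ENO1 lie above 0 in all 3 libraries, and GPI lies below it in all 3. LDHA, shorter than ENO1, lies at -0.341, 0.259 and -0.0545 in libraries 1, 2 and 3. PFKP, PKM and HK2 lie from -1.97 to -0.999 in library 2 and from -0.393 to 0.201 in libraries 1 and 3.

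With this trend removed from each library by a smooth fit on gene span, an alternative chosen after the data were seen, TPI1, GAPDH and ALDOA lost their calls at 50 µM after recovery, and GPI kept its call at -0.81 (adjusted p = 0.0291). LDHA at 50 µM and 24 h was -1.34 (adjusted p = 1.74e-06). What produces the trend with span was not tested. The ribosomal share of 2.96% to 7.66% and the low sum of mesenchymal markers occurred in the same libraries, and their part in these results was not tested either.

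The share of all counts held by the 10 enzymes together spanned a narrow range. Their sum was 1.90% ± 0.11 of all counts in vehicle at 24 h, 1.97% ± 0.07 at 25 µM and 1.83% ± 0.03 at 50 µM (SD, n = 3). After recovery it was 1.67% ± 0.10 in vehicle, 1.79% ± 0.07 after 25 µM and 1.82% ± 0.18 after 50 µM. The lowest share of a library was 1.56% (95% Wilson interval 1.54% to 1.58%, vehicle recovery library 3) and the highest was 2.05% (2.02% to 2.07%, 25 µM 24 h library 1). Intervals cover counting error only, since reads were amplified by PCR without molecular identifiers.

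Within that sum the ratio of LDHA to GAPDH differed between doses. LDHA counts per count of GAPDH in the same library were 0.530, 0.745 and 0.619 in vehicle at 24 h, 0.488, 0.452 and 0.515 at 25 µM and 0.193, 0.179 and 0.179 at 50 µM. The 3 groups did not overlap, and the ratio was lower at each higher dose. After recovery the ratio was 0.311, 0.293 and 0.495 in vehicle, 0.359, 0.295 and 0.324 after 25 µM and 0.226, 0.311 and 0.238 after 50 µM, with overlap. A ratio within a library does not depend on scaling between libraries, and it shows unequal change of the pair rather than which gene changed.

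LDHB, the heart-type subunit that joins LDHA in the lactate dehydrogenase tetramer, was at 1528 ± 87.6 CPM in vehicle at 24 h and 1401 ± 156 CPM at 50 µM (log2 fold change -0.13 ± 0.17, adjusted p = 0.664). LDHA thus made up 66.5% ± 0.43 of the counts of both subunits in vehicle at 24 h, 62.5% ± 0.44 at 25 µM and 47.2% ± 1.46 at 50 µM (SD, n = 3). After recovery its share was 53.9% ± 1.25 in vehicle, 49.6% ± 0.99 after 25 µM and 42.3% ± 2.64 after 50 µM. LDHB itself was higher after recovery from 50 µM, at 2464 ± 770 against 1547 ± 169 CPM (0.67 ± 0.17, adjusted p = 0.00584). That call was lost in a fit of these 6 libraries alone, and the value was 0.41 without library 2 (adjusted p = 0.0445). The shares compare counts of genes of different length and so describe the shift, not the ratio of transcripts.

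**Figure D4:**
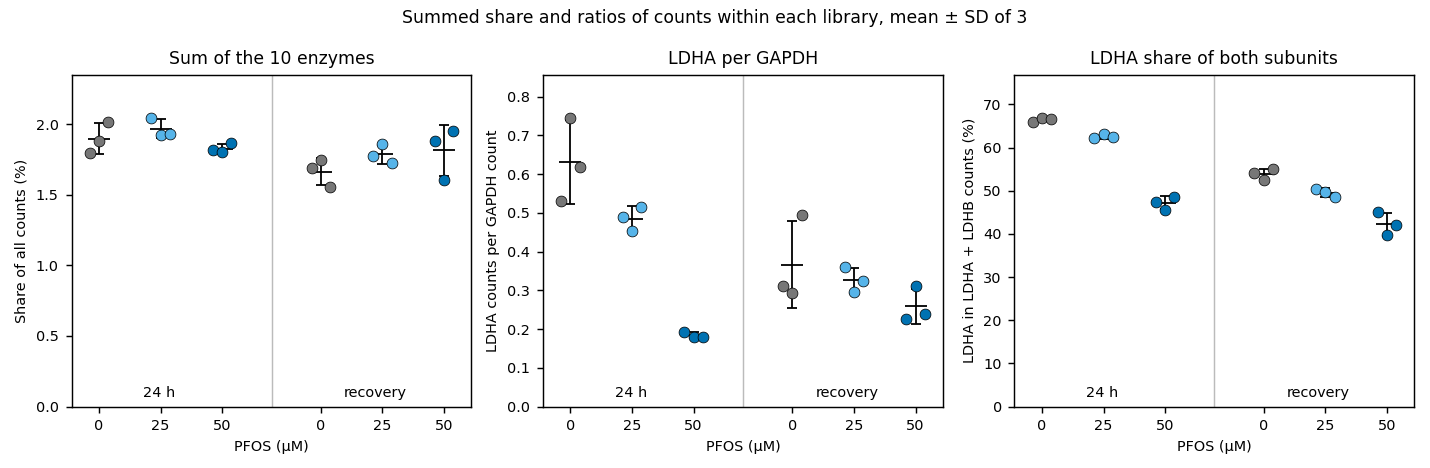
Summed share of all counts held by the 10 enzymes (left, %), LDHA counts per GAPDH count (middle) and LDHA as a share of LDHA plus LDHB counts (right, %), by PFOS dose (x axis, µM) at 24 h and after recovery. Points are libraries, bars are mean ± SD of 3, and all y axes start at 0; the sum lies between 1.56% and 2.05% while the LDHA share at 24 h is 66.5% in vehicle and 47.2% at 50 µM.

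Across the 18 libraries the genes outside the pathway whose log2 CPM followed LDHA most closely were RRM2, a subunit of ribonucleotide reductase (Pearson r of 0.95), CYP51A1, a sterol demethylase (0.90), YWHAQ, a 14-3-3 protein (0.89), CTNNAL1, an alpha-catenin-like protein (0.89), and XRCC6, the Ku70 DNA repair protein (0.88). Among members the highest correlation was that of PFKP with PKM (0.96, and 0.85 without the 50 µM recovery libraries) and the lowest over all 18 that of GPI with TPI1 (-0.77, and -0.48 without those libraries). GPI and GAPDH had 0.90 over the 15 libraries and 0.105 over all 18. All are descriptions over libraries that share treatment groups and depth.

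The enzymes that share a step with a member, with phosphoglycerate mutase, the step between PGK1 and ENO1, were 18 genes, of which 10 were tested. At 50 µM and 24 h 1 was higher and 1 was lower, beside 9.18% higher and 9.59% lower of all tested genes. HKDC1, a hexokinase-like enzyme, rose by 1.93 ± 0.29 (adjusted p = 6.83e-05), from a mean of 12.9 ± 1.30 CPM in vehicle to one of 49.2 ± 6.05 CPM (SD of 3 libraries), and kept its call in 29 alternatives. PGAM1, the main phosphoglycerate mutase, fell by 0.65 ± 0.16 on the log2 scale (adjusted p = 0.00719), a call lost without vehicle 24 h library 2 and in thinned counts. The list's median was -0.07, against 0.01 for all tested genes. HK1, the constitutive hexokinase, was at 226 ± 25.9 CPM in vehicle and 205 ± 48.8 CPM at 50 µM (-0.15 ± 0.28, adjusted p = 0.769), PFKL, the liver phosphofructokinase, at -0.01 ± 0.39 (adjusted p = 0.996), and ENO2, the neuronal enolase, at 0.49 ± 0.17 (adjusted p = 0.0520). ALDOC and GAPDHS had means of 1.26 and 2.64 CPM over all groups and were not tested, and PGK2 and PKLR had no count. After recovery from 50 µM 2 were higher (LDHB and the testis form LDHC, at 1.48 ± 0.43) and 2 were lower (HK1 at -0.87 ± 0.29 and ADPGK, an ADP-dependent glucokinase, at -0.51 ± 0.15). Of all tested genes 17.7% were higher and 10.7% were lower then. The calls of LDHC, ADPGK and HK1 were lost without library 2 of that group. LDHC lost its call in 2 of 26 alternatives, ADPGK in 2 of 28 and HK1 in 7 of 28.

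Of the 13 genes of glucose and lactate transport 10 were tested, and at 50 µM and 24 h 1 was higher and 2 were lower (median 0.14). Of all tested genes 9.18% were higher and 9.59% were lower. SLC2A3, the high-affinity glucose transporter GLUT3, rose from 114 ± 25.5 to 294 ± 58.3 CPM, by 1.38 ± 0.19 (adjusted p = 1.83e-05), a call that held in 29 alternatives. Its near-identical paralog SLC2A14 makes the division of reads uncertain. SLC2A6, a transporter of lysosomal membranes, fell by 1.10 ± 0.29 on the log2 scale (adjusted p = 0.00929, lost in thinned counts), and SLC2A12 was at -1.26 ± 0.39 (adjusted p = 0.0267, lost in 6 of 28 alternatives). The widespread transporter SLC2A1 was at 0.28 ± 0.21 (adjusted p = 0.379) at 24 h. After recovery from 50 µM it was lower (-0.83 ± 0.22, adjusted p = 0.00847), the 1 gene of the list called then, beside 10.7% lower of all tested genes. That call was lost without library 2 of the 50 µM recovery group and in a fit of these 6 libraries alone.

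In this comparison 9.18% of all tested genes were higher and 9.59% were lower at 50 µM and 24 h. Among regulators of flux 9 of 14 were tested, and 2 were higher at 50 µM and 24 h. They were TXNIP, a glucose-responsive brake on glucose uptake (0.62 ± 0.15, adjusted p = 0.00521, lost with the gene-span trend removed), and PDP1, the phosphatase that activates pyruvate dehydrogenase (0.58 ± 0.14, adjusted p = 0.00623). The list's median was 0.23. After recovery from 50 µM 1 was lower, beside 10.7% of all tested genes. It was the pyruvate dehydrogenase kinase PDK2 (-0.64 ± 0.23, adjusted p = 0.0398), lost in 9 of 28 alternatives. None of the 8 genes of pyruvate entry into mitochondria and none of the 7 pentose phosphate pathway genes, all tested, was called by edgeR at 50 µM and 24 h (2 of each at an unadjusted p under 0.05), with medians of -0.32 and -0.07. After recovery, where 17.7% of all tested genes were higher, 4 of 8 were higher in the first list. These were the mitochondrial pyruvate carrier subunits MPC1 (1.54 ± 0.41) and MPC2 (1.47 ± 0.25) and the pyruvate dehydrogenase subunits PDHA1 (0.46 ± 0.15) and PDHB (0.59 ± 0.18), with a median of 0.37. In the pentose phosphate list 2 of 7 were higher then, TALDO1, transaldolase (1.12 ± 0.18, adjusted p = 0.000145), and PGLS, a lactonase (1.35 ± 0.40, adjusted p = 0.0161). Without library 2, MPC1, PDHB and PDHA1 lost their calls. MPC1 lost its call in 2 of 27 alternatives, PDHB in 4 of 28 and PDHA1 in 8 of 28. MPC2 and TALDO1 kept theirs in all 28. PGLS lost its call without vehicle recovery library 3, without 50 µM recovery library 3 and in a fit of these 6 libraries alone.

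Routes that draw on glycolytic intermediates were also measured. At 50 µM and 24 h, in the list of side branches, 4 of 10 tested genes were higher and 1 was lower (median 0.35). Among all tested genes 9.18% were higher and 9.59% were lower. GFPT2 and GFPT1, the enzymes that take fructose 6-phosphate into hexosamine synthesis, rose by 2.73 ± 0.20 (adjusted p = 4.53e-09) and 0.88 ± 0.14 (adjusted p = 0.000142). PGM3, a later enzyme of that route, rose by 0.69 ± 0.18 (adjusted p = 0.0110), and UAP1, its last enzyme, which lies outside the naming rule and was named after its value was seen, was the other gene called higher. GPD2, the mitochondrial glycerol 3-phosphate dehydrogenase of the NADH shuttle, fell by 1.39 ± 0.20 on the log2 scale (adjusted p = 3.54e-05). GFPT2 went from 24.3 ± 6.08 to 157 ± 20.5 CPM, and the calls of GFPT2, GFPT1 and GPD2 held in 29 alternatives each. PGM3 lost its call without library 1 or library 3 of 50 µM at 24 h. After recovery GFPT2 stood at 30.8 ± 2.75 against 20.4 ± 3.00 CPM in vehicle (0.62 ± 0.23, adjusted p = 0.0472), a call lost in 20 of 28 alternatives, and AKR1B1, aldose reductase, named after its value was seen, was also higher. Among all tested genes 17.7% were higher then.

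Of gluconeogenesis and glycogen genes 11 of 17 were tested, with 3 higher and 1 lower at 50 µM and 24 h (median 0.17). Among all tested genes 9.18% were higher and 9.59% were lower. PCK2, the mitochondrial phosphoenolpyruvate carboxykinase, rose from 43.8 ± 3.02 CPM in vehicle to 152 ± 19.9 CPM at 25 µM (1.79 ± 0.22, adjusted p = 8.17e-05) and 177 ± 17.97 CPM at 50 µM (2.01 ± 0.23, adjusted p = 1.58e-06). Both calls held in 29 alternatives, and PCK2 was at -0.61 ± 0.24 after recovery from 50 µM (adjusted p = 0.0609). PGM1, phosphoglucomutase, rose by 1.07 ± 0.19 (adjusted p = 0.000449) and G6PC3, a glucose 6-phosphatase, by 0.76 ± 0.15 (adjusted p = 0.00110). UGP2, which makes UDP-glucose, fell by 0.59 ± 0.15 on the log2 scale (adjusted p = 0.00809), a call lost in thinned counts. After recovery from 50 µM 3 of the 11 were higher and 2 were lower, beside 17.7% and 10.7% of all tested genes. Changes in the list ran from -1.26 to 0.96, with a median of -0.02. Among the higher genes were PGM1 (0.96 ± 0.21), a call lost in thinned counts, and G6PC3 (0.57 ± 0.15). The genes called lower lie outside the naming rule. The call of G6PC3 was lost with no filter, in a fit of these 6 libraries alone and with the gene-span trend removed (0.15, adjusted p = 0.469).

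Among 12 transcription factors known to act on glycolytic genes 10 were tested. At 50 µM and 24 h 2 were higher, ATF4, the effector of the integrated stress response (1.53 ± 0.18, adjusted p = 2.89e-06), and MLX, the partner of glucose-sensing factors (0.72 ± 0.22, adjusted p = 0.0251), and 1 was lower, HIF1A. Of all tested genes 9.18% were higher and 9.59% were lower. HIF1A went from 507 ± 39.4 to 335 ± 13.8 CPM, a change of -0.60 ± 0.13 (adjusted p = 0.00304) that held in 29 alternatives, while MLX lost its call in 4 of them. ATF4 was also higher at 25 µM (0.84 ± 0.18, adjusted p = 0.0172, lost in 6 of 29 alternatives). After recovery from 50 µM 17.7% of all tested genes were higher and 10.7% were lower. There 1 factor was higher, ATF4 (0.57 ± 0.18, adjusted p = 0.0191), and 5 of 10 were lower, with a median of -0.53 against -0.05 for all tested genes. These were SP1 (-0.98 ± 0.23, adjusted p = 0.00284, lost in thinned counts and in a fit of these 6 libraries alone), HIF1A (-0.40 ± 0.13, adjusted p = 0.0305) and, named after their values were seen, ARNT, EPAS1 and MLXIP. SP1 also differed between the vehicle groups, being higher after recovery than at 24 h by 1.00 ± 0.21 (adjusted p = 0.0227). After recovery from 25 µM SP1 was at -0.93 ± 0.22 (adjusted p = 0.488). After recovery ATF4 kept its call in 21 of 28 alternatives. It lost the call without library 2 and turned to -0.23 with the gene-span trend removed. HIF1A after recovery lost its call in 6 of 28, among them the removal of that trend. Transcript levels do not report the protein of HIF1A, which is known to be set mainly by its degradation.

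**Figure D5:**
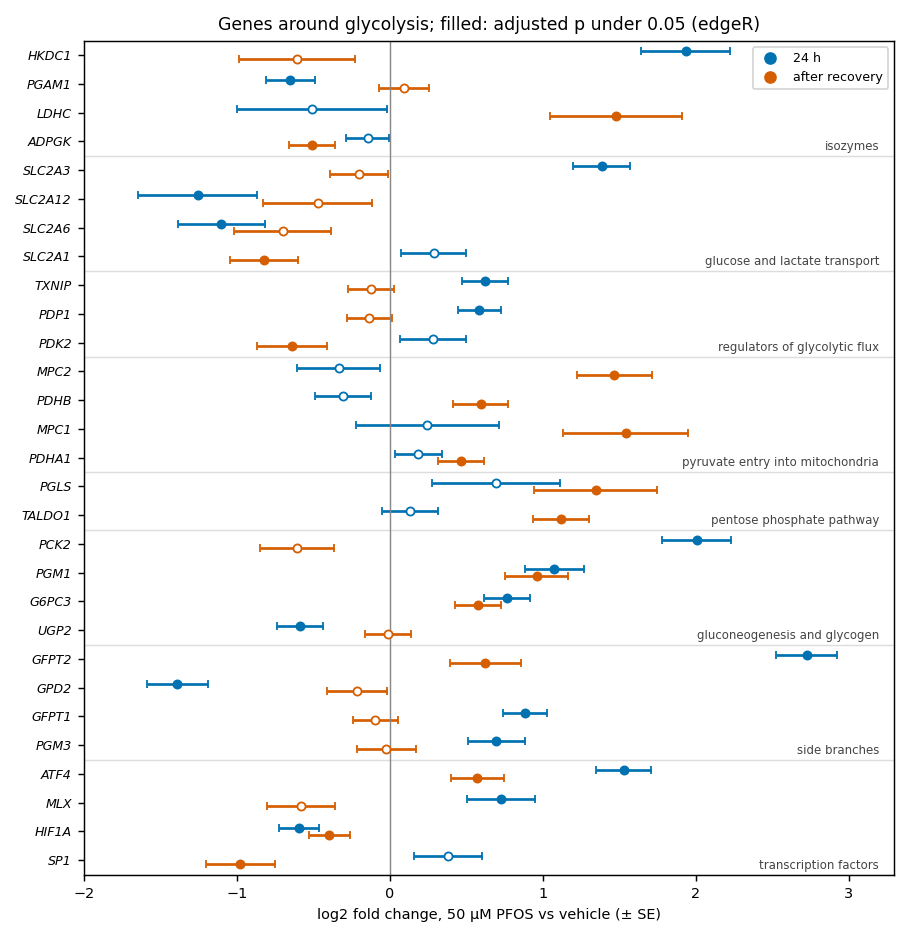
Log2 fold change at 50 µM PFOS against vehicle (x axis, ± SE) at 24 h (blue) and after recovery (orange) for the named genes of 8 lists around glycolysis (y axis, grouped by list). Filled points passed edgeR's adjusted p under 0.05. GFPT2, PCK2, HKDC1, ATF4, SLC2A3 and PGM1 lie above 1 at 24 h and GPD2, SLC2A12 and SLC2A6 below -1.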

How the data were processed

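Raw counts of reads were deposited by the authors as a single table, with gene symbols in rows and libraries in columns, and the file headers name no normalization. Per the labels' protocols, RNA was extracted with TRIzol and poly(A) libraries were made by Smart-seq2, which marks no strand, and sequenced as paired ends. The submitters' processing notes name Trimmomatic, STAR, DESeq2 and MACS2, and the builds GRCh38 and hg38. Not given in the sources used here are tool versions, the counting tool, its annotation and its use of strand. Hence reads of antisense and overlapping genes and of near-identical copies cannot be told apart. The 18 H3K27ac CUT&Tag samples were not analysed here, and 0 columns were left without a sample.

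Counts were fitted with edgeR 4.0.16 in R 4.3.3 (filterByExpr, minimum count 10, TMM scaling, quasi-likelihood test, 1 mean per group over 18 libraries, two-sided). The 9847 tested genes held 99.2% of the counts, and 7391 genes had no count. The median biological coefficient of variation was 16%. P-values were adjusted by Benjamini-Hochberg over all tested genes at a threshold of 0.05, and 8 contrasts were computed. CPM are not corrected for length, so levels are compared within genes only. Correlations use log2 CPM with a prior count of 2. Scripts were tested on simulated data.

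The members and all gene lists were chosen with earlier results of these data known. Named genes are all members, the isozyme of highest mean CPM per step, up to 4 genes per list that were called in a PFOS contrast, by size of change at 50 µM and 24 h, and the 5 genes most correlated with LDHA. Alternatives were other scalings, no filter, a replicate block, own libraries only, thinned counts, DESeq2 1.42.0, and leaving out each library. Leaving out the 3 libraries of 50 µM after recovery or 87 ribosomal protein genes, and removing the gene-span trend, were added after seeing the data. Where 1 of 3 libraries is left out, groups still share 1 estimate of the spread. Replicate numbers do not pair the libraries: over 15 pairs of groups, same-number deviations correlated at -0.338 to 0.394, and 0 pairs of groups had all 3 correlations over 0.1.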

Additional observations from a re-analysis of the deposited data

Results flagged for a closer look

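The effect of 50 µM PFOS differed between the times for 3 members, by the contrast of the recovery effect minus the 24 h effect in edgeR. These were 2 higher and 1 lower of 10, beside 11.6% higher and 7.42% lower of all tested genes. For GPI the difference was -1.48 on the log2 scale (adjusted p = 0.0119), with 50 µM libraries above vehicle at 24 h and mostly below it after recovery. LDHA had a difference of 1.25 (adjusted p = 0.000481) and TPI1 one of 0.82 (adjusted p = 0.00715). In vehicle LDHA changed by -0.75 from 24 h to recovery (adjusted p = 0.0131). With the gene-span trend removed the difference of TPI1 was 0.39 and lost its call (adjusted p = 0.0936). Groups of 3 libraries are too small for a test of single outlying libraries.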

How the results depend on the processing

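Over the 13 members' results that were called, 300 of 368 values from alternatives kept direction and call, 63 kept direction only and 5 reversed; among 38 called results of neighbouring genes these were 977, 101 and 1 of 1079. Calls among members moved from 1 to 2 at 50 against 25 µM at 24 h with no filter and with DESeq2, to 5 with own libraries only and to 4 without the 3 libraries of 50 µM after recovery. At 50 µM after recovery they moved from 4 to 2 with upper-quartile scaling, 0 with own libraries only and 1 with the gene-span trend removed. At 50 against 25 µM after recovery TPI1 and GAPDH both lost their calls with upper-quartile scaling (1 called, PFKP, lower) and with no filter (2 called, GPI and PFKP, both lower), and the count moved from 2 to 1 (TPI1) in thinned counts and to 0 with library totals, own libraries only or the span trend removed. The call of LDHA between vehicle times was lost (0 called) in thinned counts. Own libraries only and thinned counts hold fewer samples or reads, and with own libraries only calls moved both up and down. What moved the calls was not tested. Leaving out 1 library gave 1 to 3 calls at 50 µM and 24 h, 1 to 4 between doses at 24 h, 2 to 5 at 50 µM after recovery, 0 to 5 between doses after recovery, 3 to 5 for the difference between times and 0 to 1 between vehicle times. It also gave ranges across 0 at 50 µM and 24 h for HK2 (-0.21 to 0.059), ALDOA (-0.12 to 0.028) and PFKP (-0.19 to 0.050), and after recovery for LDHA (-0.20 to 0.10), HK2 (-0.46 to 0.16) and PKM (-0.56 to 0.071). With the span trend removed PFKP was 0.0079 at 50 µM and 24 h. After recovery from 50 µM that alternative gave -0.032 for ALDOA, -0.014 for TPI1, -0.16 for GAPDH and -0.23 for ATF4, and between doses -0.091 for TPI1 and -0.0021 for GAPDH. LDHA at 50 µM after recovery was 0.017 with own libraries only. The summed share at 50 µM and 24 h was 1.87% outside ribosomal protein genes. Upper-quartile scaling shifted the median of all genes by -0.125 at 50 µM after recovery. With the replicate block, whose numbers do not pair the libraries (2 of 18 libraries correlated best with their own number), members called were 0, 2 and 1 at 24 h for 25 µM, 50 µM and between doses, 0, 3 and 2 after recovery, 3 for the difference between times and 1 between vehicle times. ALDOA at 50 µM after recovery (adjusted p = 0.0642) and TPI1 between doses after recovery (adjusted p = 0.0537) lost their calls, and PFKP between doses after recovery gained one (-0.87, adjusted p = 0.0452); the block changed no other call of a member. The lowest depth, 582233 counts, limits HK2 most.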
